A study of Mus musculus with 2688 samples.

Results

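Microglia of the embryonic spinal cord were compared with microglia of the embryonic cerebellum, the most caudal pair among the embryonic regions sampled. The members were the 4 spinal cord and 4 cerebellum samples of embryonic age, 8 of the 51 region samples in the study, chosen by their region and age labels and not by a measured value. A region sample is the sum of the cells of 1 region and 1 replicate. Both groups came from wild-type CD1 mice, an outbred strain, and carried no transgene or treatment; the labels give the age as embryonal, with no day of gestation. The remaining region samples of the study were embryonic forebrain and midbrain (4 each) and regions of mice of 3 and 16 weeks. Cells were sorted singly into 384-well plates after a density gradient, with antibodies to CD11b, CD45, Ly6C, Ly6G and CD206, and each well gave a full-length SmartSeq2 library without molecular identifiers. Per the series design some mice gave more than 1 region; no label ties a replicate number to a mouse, so p-values measure the spread between these samples.

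Microglia are the macrophages of the brain and spinal cord parenchyma. They arise from yolk sac progenitors, enter the neural tube early in embryonic life, and divide there while neurons are born and die around them. Embryonic microglia engulf dying cells and debris through receptors such as MERTK and AXL, digest them in lysosomes with cathepsins, and carry a partly mature form of the program that marks adult microglia (P2ry12, Tmem119, Fcrls). The question of the comparison is whether the region in which these cells reside goes with a difference in that program, in cell division or in phagocytosis.

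Of 380 sorted wells of these regions, 352 were kept: 178 cerebellum cells (42 to 47 per sample) and 174 spinal cord cells (41 to 46 per sample). Summed counts were 16360283 to 18884413 per cerebellum sample and 12996779 to 15395067 per spinal cord sample, so cerebellum had more reads per sample in all cases. The median number of detected genes per cell was 3732 to 4402.5 in cerebellum samples and 3928 to 4516 in spinal cord samples, and the mitochondrial share of reads was 2.763% to 4.582% and 2.86% to 3.763%. Both regions shared a plate, where cerebellum filled columns 1 to 12 and spinal cord columns 13 to 24, so region and position on the plate cannot be told apart. Wells of columns 1 and 2 were deposited with the reads of other wells of their row added, which were subtracted; this touched 32 wells of the first cerebellum replicate only, whose total as deposited was 90251956 against 16360283 after subtraction. The 4 blank wells of the plate held 3107 to 17592 counts.

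The label was checked against marker genes. Levels are given as CPM, a gene's share of all counts of a sample after scaling by edgeR's TMM factors over the 8 samples. Csf1r, the receptor that microglia need to survive, ranged from 8423 to 11718 CPM over the 8 samples, and Cx3cr1, the fractalkine receptor, from 3463 to 4918 CPM. All 10 microglia markers looked at had reads in every sample, the lowest being Aif1 with 326 to 433 CPM. Among markers of other blood cells, those of neutrophils summed to at most 2.63 CPM in any sample, those of T and NK cells to at most 1.19 CPM and those of mast cells to at most 2.53 CPM. B cell markers summed to 1526 to 1744 CPM in cerebellum samples and 1094 to 1508 CPM in spinal cord samples, most of it from Ighm, the immunoglobulin mu heavy chain, while Cd79a had 0 reads. Ighm, chosen after its values were seen, had 1452 to 1688 CPM and 1006 to 1348 CPM, without overlap (log2 difference -0.42, SE 0.11; edgeR adjusted p 0.515), and its part in the results was not tested. Neuron markers summed to 10.0 to 107.7 CPM in cerebellum samples and 33.5 to 59.5 CPM in spinal cord samples, and oligodendrocyte lineage markers to 12.3 to 30.3 and 16.4 to 48.1 CPM, with Olig2 and Sox10 at 0 reads.

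No gene passed the threshold in the genome-wide comparison. edgeR's quasi-likelihood test called 0 of 12375 genes tested (percent called 0) at an adjusted p of 0.05. At an unadjusted p under 0.05 it gave 795 genes (6.42%), of which 403 had a positive log2 difference, meaning more in spinal cord (3.26%), and 392 a negative one (3.17%). Complete separation, with all 4 spinal cord samples above all 4 cerebellum samples, was found for 288 genes (2.33%), and the reverse for 295 (2.38%). DESeq2 called 287 genes, 223 with more and 64 with less in spinal cord; 147 of them had too few reads for edgeR's filter, and their median level was 1.9 CPM. Without the filter on low counts edgeR called 9 genes: Fn1, Axl and Ccne1 with more in spinal cord, and Rab7b, Asb10, Gpx3, Ccl9, Ctsl and Sepp1 with less. In what follows the values of single genes are therefore descriptions of these 8 samples; none passed the test as fixed. A lower level in summed cells cannot tell fewer cells with the transcript from less transcript per cell.

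**Figure D1:**
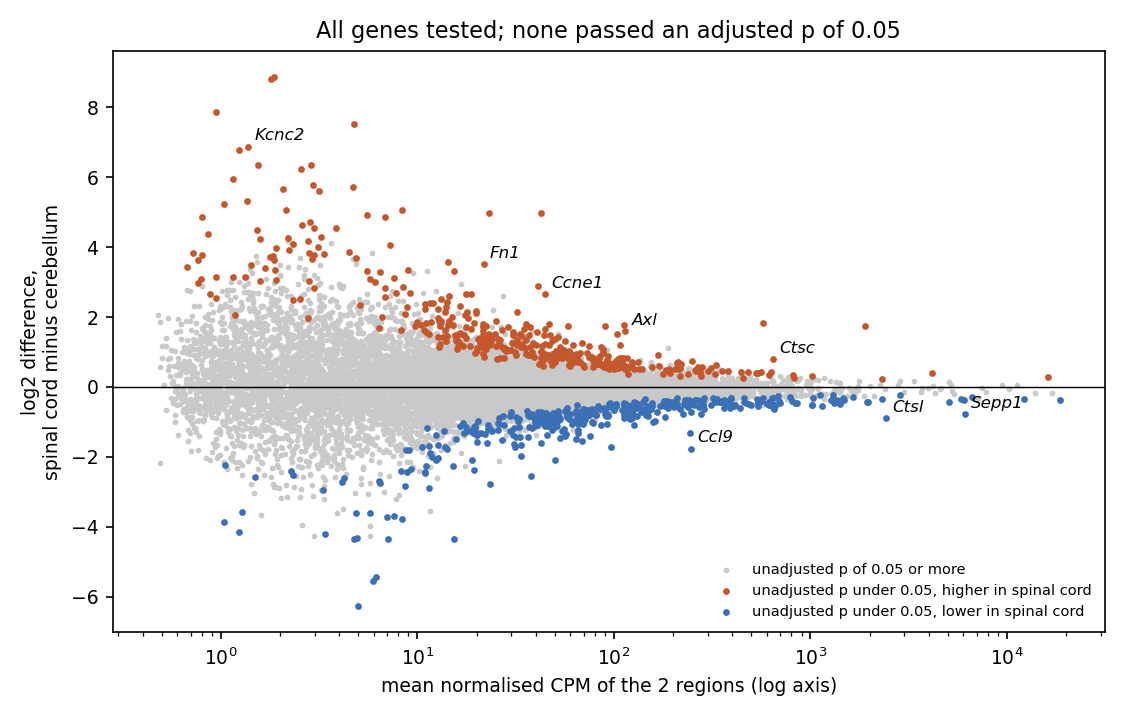
Each point is 1 of 12375 genes; the x axis is the mean level of the 2 regions in CPM on a log axis, the y axis the log2 difference of spinal cord minus cerebellum. Among genes of at least 100 CPM, 76 coloured points lie above 0 and 179 below; the widest differences sit at low levels, where a few cells carry the reads.

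Well-measured genes with a small p were more often below than above 0. Among 1842 genes with a mean level of at least 100 CPM, 255 had an unadjusted p under 0.05 (13.8%), 179 of them with less and 76 with more in spinal cord. Among 3816 genes under 10 CPM there were 116 such genes (3.04%), 86 with more and 30 with less in spinal cord. The median standard error of the log2 difference was 0.20 in the first group and 1.18 in the second.

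The smallest p belonged to Ccl9, a chemokine that attracts CCR1-bearing myeloid cells. Ccl9 (chromosome 11, 83572919 to 83578636, GRCm38) stood at 318.5, 337, 413 and 449 CPM in the 4 cerebellum samples and at 126, 65.7, 138 and 117 CPM in the 4 spinal cord samples. Every spinal cord sample lay under every cerebellum sample, with a gap wider than the range within spinal cord. The log2 difference was -1.77 (SE 0.23), a level 3.40-fold lower in spinal cord, with an edgeR adjusted p of 0.137. Reads of Ccl9 were found, at a fixed depth of 94246 reads per cell, in 66.8% of cerebellum cells and 44.7% of spinal cord cells on average over samples. The call depended on the fit: the adjusted p was 0.0241 with all 16 embryonic samples in the model and 0.0246 with each cell thinned before summing, and over all alternatives it ranged from 1.63e-05 (DESeq2) to 0.988 (counts as deposited).

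Sepp1, which encodes the selenium carrier selenoprotein P, gave the same adjusted p. Its levels were 7149.9, 7679, 9260.1 and 6824 CPM in cerebellum and 4265, 4634, 4953 and 4129.8 CPM in spinal cord. The groups did not overlap; the third cerebellum sample was the highest of the 8. The log2 difference was -0.78 (SE 0.11; 1.72-fold lower in spinal cord; adjusted p 0.137, edgeR). With the replicate number as a block Sepp1 passed the threshold (adjusted p 0.0328, edgeR), and over all alternatives its adjusted p ranged from 0.000366 (no filter on low counts) to 0.988 (counts as deposited). Nearly every cell had Sepp1 reads (100% and 99.2% at the fixed depth).

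Ctsc, the cysteine protease cathepsin C that activates serine proteases of immune cells, had the smallest p of the genes with more in spinal cord. It stood at 513, 448, 459 and 464 CPM in cerebellum and at 902, 915, 689 and 764 CPM in spinal cord. All 4 spinal cord samples lay above all 4 cerebellum samples, and the cerebellum samples were close together. The log2 difference was 0.80 (SE 0.12; 1.74-fold; adjusted p 0.208, edgeR). Leaving out any 1 sample gave differences of 0.73 to 0.86.

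The promoter windows of these 3 genes are shown because they head the comparison in both directions. They are RefSeq sequences of GRCm38.p6, 250 bases before to 50 after a start, for Ccl9 (chr11:83578587-83578886, minus strand), the first listed start of Sepp1, named Selenop there (chr15:3270517-3270816, plus strand), and Ctsc (chr7:88277835-88278134, plus strand). Capitals mark matches to GAGGAAGT or AGGAAGTG, which overlap each other in 7 bases, read on both strands; these are letters of the kind bound by PU.1 (Spi1), the ETS factor that macrophages depend on.
Ccl9: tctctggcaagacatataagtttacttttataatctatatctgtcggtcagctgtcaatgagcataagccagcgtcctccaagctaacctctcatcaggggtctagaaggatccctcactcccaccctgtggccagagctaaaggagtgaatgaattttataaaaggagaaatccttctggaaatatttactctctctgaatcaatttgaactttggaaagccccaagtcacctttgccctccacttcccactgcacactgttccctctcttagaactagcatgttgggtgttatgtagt
Sepp1: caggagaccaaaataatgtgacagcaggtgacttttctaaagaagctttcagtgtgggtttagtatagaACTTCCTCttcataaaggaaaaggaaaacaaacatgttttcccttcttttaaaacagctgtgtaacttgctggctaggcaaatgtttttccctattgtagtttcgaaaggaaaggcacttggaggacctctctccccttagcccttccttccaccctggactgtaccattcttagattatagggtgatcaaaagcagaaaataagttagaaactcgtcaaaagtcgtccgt
Ctsc: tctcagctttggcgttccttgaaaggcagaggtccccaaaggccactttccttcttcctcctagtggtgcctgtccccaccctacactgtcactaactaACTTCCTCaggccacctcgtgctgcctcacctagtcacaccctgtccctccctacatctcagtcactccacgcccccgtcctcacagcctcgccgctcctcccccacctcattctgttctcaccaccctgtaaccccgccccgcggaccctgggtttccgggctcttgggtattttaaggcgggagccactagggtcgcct
Sepp1, with less in spinal cord, and Ctsc, with more, each hold 1 match, on the reverse strand, and Ccl9 holds none. A match is found in 5.66% of all 32851 promoter windows of that length. Of the 20 genes with the smallest p-values 13 had an entry and 3 of these, Sepp1, Ctsc and Asb10, a match. A gene counted when any of its windows matched, and some had several, such as Sepp1 with 3, of which 2 matched. The count of genes therefore cannot be set against the share of single windows. A match is a description of the letters only.

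Ctsl, Rab7b, Gpx3 and Ftl1 were also among the genes of smallest p with less in spinal cord. Ctsl, the lysosomal protease cathepsin L, was measured at 3301, 2985, 3744 and 2589 CPM in cerebellum and at 2175, 1619, 1607 and 1424.5 CPM in spinal cord (log2 difference -0.89, SE 0.15; adjusted p 0.309, edgeR). Rab7b, a small GTPase of late endosomes, stood at 133 to 181 CPM in cerebellum and 27.9 to 66.0 CPM in spinal cord (log2 difference -1.72, SE 0.28). Reads of Rab7b were found in 45 of 178 cerebellum cells and 30 of 174 spinal cord cells. Gpx3, a selenium-dependent glutathione peroxidase, stood at 267 to 430 CPM and 108 to 191 CPM (log2 difference -1.31, SE 0.23). Ftl1, the ferritin light chain, had 701 to 813 CPM against 512 to 571 CPM (log2 difference -0.50, SE 0.10). The groups did not overlap for any of these 4 genes, and the adjusted p was 0.299 for Rab7b and 0.309 for Ctsl, Gpx3 and Ftl1.

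Sdcbp, a scaffold of exosome formation, lay at 1104 to 1385 CPM in cerebellum and 801.5 to 866 CPM in spinal cord. Abhd4, a lipase of endocannabinoid synthesis, lay at 287 to 416 CPM and 192 to 231 CPM. Asb10 and Slc12a2, the sodium, potassium and chloride cotransporter, completed the 10 genes of smallest p with less in spinal cord, with log2 differences of -2.09 (SE 0.38) and -0.93 (SE 0.17). All 10 separated the regions completely, against 2.38% of all genes in that direction, but they were picked by p from the same values.

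Beside Ctsc, the 10 genes of smallest p with more in spinal cord were scarce. Ccne1, cyclin E1, which drives entry into S phase, stood at 13.5, 10.7, 9.39 and 15.2 CPM in cerebellum and at 31.6, 156, 78.6 and 43.1 CPM in spinal cord (log2 difference 2.66, SE 0.50; adjusted p 0.309, edgeR). Its reads came from 10 cerebellum cells and 23 spinal cord cells, with 32.3% and 17.4% of them in 1 cell. Pkmyt1, the kinase that holds CDK1 inactive before mitosis, stood at 12 to 25.5 CPM and 43.1 to 104 CPM (log2 difference 1.82, SE 0.36), with reads in 25 and 35 cells. Both genes belong to the cell cycle. Both were separated between the regions, but they were picked by p from the same values.

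The other 7 genes of that direction rested on very few cells. Chml, a Rab escort protein, had 150 reads in 13 cerebellum cells and 1489 reads in 19 spinal cord cells. Oprm1, the mu opioid receptor, had 2 reads in 2 cells against 178 reads in 15 cells, and Kcnc2, a potassium channel of neurons, 1 read in 1 cell against 155 reads in 12 cells. Zfp551, with 0 reads in cerebellum and 201 reads in 7 spinal cord cells, was at least 83.3-fold higher in spinal cord when cerebellum is set to 3 counts over the group. Gm37036, 0 against 105 reads in 5 cells, was at least 43.4-fold higher by the same bound. RP23-328F3 had 3 reads in 1 cerebellum cell and 547 reads in 5 spinal cord cells. Gm44185 had 1 read in 1 cerebellum cell and 138 reads in 7 spinal cord cells, 50.7% of them from 1 cell. No spinal cord sample was at 0 for any of these 7 genes, and no cerebellum sample rose above 3.09 CPM. All but Chml were near 0 in cerebellum, and edgeR's filter asks for reads in at least as many samples as a region has. Those genes could enter the test only with reads in every spinal cord sample, so that trait was fixed by the filter.

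**Figure D2:**
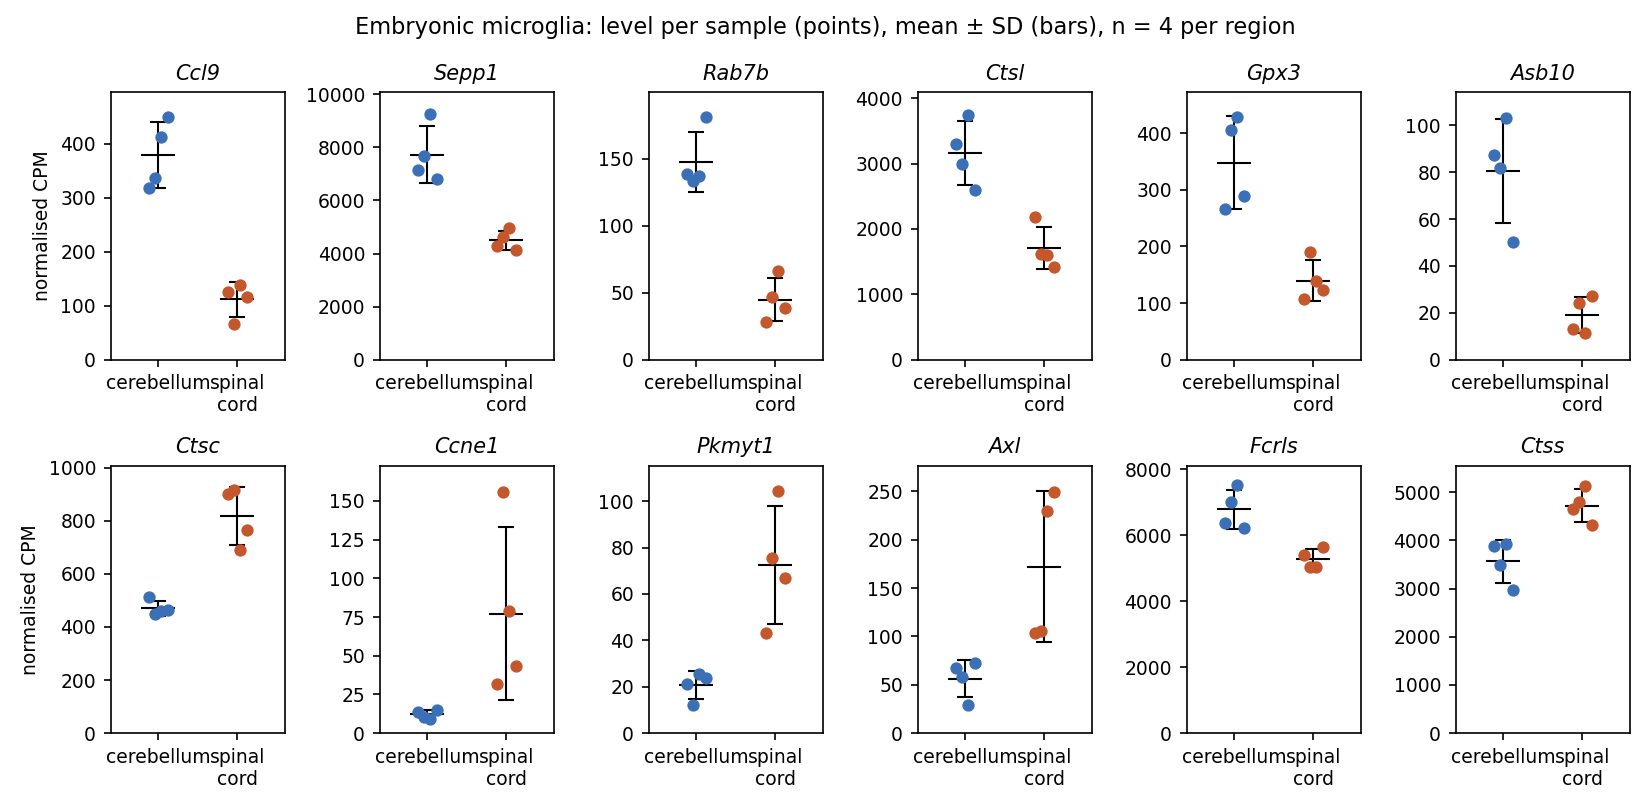
Level in CPM (y axis, from 0) of 12 genes in each of the 4 cerebellum (blue) and 4 spinal cord (orange) samples, with mean and SD. In all 12 panels the regions do not overlap: Ccl9, Sepp1, Rab7b, Ctsl, Gpx3, Asb10 and Fcrls lie lower and Ctsc, Ccne1, Pkmyt1, Axl and Ctss higher in the spinal cord samples, and none passed the adjusted threshold. The genes were picked from these same values, so their separation is not a test.

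No gene of the homeostatic program of microglia passed the test. Of 20 genes of the list, all tested, 0 were called; 5 had a positive and 15 a negative log2 difference, against 50.7% positive and 49.3% negative among all genes, and the list's median was -0.10, against 0.01 over all genes tested. P2ry12, the ADP receptor that steers microglial processes, had 4416, 4771, 5129 and 4495 CPM in cerebellum and 5018, 4270.1, 5119 and 3898 CPM in spinal cord (log2 difference -0.04, SE 0.10). Tmem119 had a log2 difference of 0.17 (SE 0.12), Cx3cr1 of -0.16 (SE 0.11) and Sall1, the transcription factor that sets microglial identity, of -0.08 (SE 0.13).

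Within the list, Fcrls alone lay lower in every spinal cord sample and Ctss alone higher, 5.0% of the list each, against 2.38% and 2.33% of all genes. Fcrls, an Fc receptor-like scavenger protein, stood at 6371, 6996, 7523 and 6227 CPM in cerebellum and at 5396, 5037, 5048.5 and 5637 CPM in spinal cord. Every spinal cord sample was lower than every cerebellum sample (log2 difference -0.36, SE 0.08; adjusted p 0.357, edgeR). Ctss, the lysosomal protease cathepsin S, stood at 3876, 3483, 3920.1 and 2974 CPM against 4662, 4788, 5133 and 4315 CPM, with every spinal cord sample higher (log2 difference 0.41, SE 0.10; adjusted p 0.494). Olfml3 had 863.5 to 1496.5 CPM against 609 to 964 CPM, with overlap (log2 difference -0.51, SE 0.19).

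Genes that microglia raise when they engulf material, many of them also seen around plaques in disease, had differences in both directions. Of 19 tested of 20 (Clec7a had too few reads), 0 were called, 8 had positive and 11 negative differences, and the median was -0.35; Axl and Apoe had an unadjusted p under 0.05 with more in spinal cord, and Csf1, Gpnmb, Cd9, Cd68 and Ctsb with less, against 3.26% and 3.17% of all genes. Axl, a receptor tyrosine kinase that binds GAS6 on dying cells, stood at 67.1, 57.9, 28.8 and 72.0 CPM in cerebellum and at 103, 106, 229 and 249 CPM in spinal cord (log2 difference 1.61, SE 0.38; adjusted p 0.417). All spinal cord samples were higher, the last 2 by the widest margin. Its ligand Gas6, chosen after its values were seen, lay on the other side, at 872 to 1027.5 CPM in cerebellum and 505 to 931 CPM in spinal cord, with overlap (log2 difference -0.46, SE 0.17), and Mertk differed by -0.12 (SE 0.13).

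Apoe, the lipid carrier, had 10911 to 16513 CPM in cerebellum and 16406 to 20597 CPM in spinal cord, overlapping only between the third cerebellum sample and 2 spinal cord samples (log2 difference 0.29, SE 0.13; adjusted p 0.762). Cd68, a lysosomal membrane protein of macrophages, had 683 to 910 CPM and 367 to 673 CPM, with no overlap (log2 difference -0.55, SE 0.18; adjusted p 0.631). Spp1, osteopontin, varied more among cerebellum samples (368.5 to 1275 CPM) than between the regions (log2 difference 0.24, SE 0.36).

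Lysosome genes also had differences in both directions. Of 20 lysosome genes, all tested, 0 were called, 7 had positive and 13 negative differences, and the median was -0.08. Of the list, 2 genes lay lower in every spinal cord sample (10.0%) and 1 higher (5.0%), against 2.38% and 2.33% of all genes. Ctsl and Lamp1, the latter chosen after its values were seen, lay lower in every spinal cord sample. Psap, the precursor of the saposins, also chosen so, lay higher in every spinal cord sample (2290 to 2683 CPM against 2029 to 2216 CPM, log2 difference 0.22, SE 0.08). So did Ctss, given above with a log2 difference of 0.41. At most 1 of Psap and Ctss is counted in the list, whose highest log2 difference was also 0.41. Ctsb differed by -0.35 (SE 0.15) and Ctsd by 0.06 (SE 0.11), both with overlap.

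Complement genes lay more often above 0 and transcription factors more often below. Of 11 complement genes tested of 13, 0 were called and 8 had positive differences (72.7%, against 50.7% of all genes). In every spinal cord sample 2 lay higher (18.2%) and 1 lower (9.09%), against 2.33% and 2.38% of all genes. C1qa had 2428 to 2918 CPM in cerebellum and 2947 to 3179.5 CPM in spinal cord, without overlap but with a log2 difference of 0.18 (SE 0.09); C1qb and C1qc overlapped. Of 22 macrophage transcription factors, all tested, 0 were called and 17 had negative differences, against 49.3% of all genes, with a median of -0.27. Of these factors 2 lay lower in every spinal cord sample (9.09%) and 0 higher, against 2.38% and 2.33% of all genes. Spi1, which encodes PU.1, had 545, 575, 591 and 549 CPM against 503, 339, 430.1 and 356 CPM (log2 difference -0.47, SE 0.14; adjusted p 0.579), whereas Irf8, its partner, differed by -0.06 (SE 0.10). The complement genes, Spi1 and Irf8 were chosen after their values were seen.

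Genes of cell division had mostly positive differences, none past the test. All 20 G2/M genes, which are made from late S phase to mitosis, had a positive log2 difference, against 50.7% of all genes, with a median of 0.48; 0 were called, 2 had an unadjusted p under 0.05 and none separated the regions. The sign depended on single samples for 8 of the 20 (Cenpf, Bub1b, Ube2c, Cdc20, Ccnb2, Birc5, Ccnb1 and Kif20a), which turned negative when 1 sample was left out. With cycling cells left out, together with the cells with too few reads for thinning, 7 of 12 tested were positive. Cells were called cycling by these same 20 genes, so this setting removes most of the list's reads by definition and is not a test of the list. Mki67, the standard mark of dividing cells, stood at 232, 85.0, 73.8 and 87.1 CPM in cerebellum and at 79.7, 420, 144 and 387 CPM in spinal cord. The first cerebellum sample and spinal cord samples 2 and 4 were high, and the groups overlapped (log2 difference 1.11, SE 0.54; adjusted p 0.802). Bub1, a kinase of the spindle checkpoint, had 23.2 to 32.5 CPM and 25.5 to 85.5 CPM (log2 difference 1.16, SE 0.39; adjusted p 0.632). The list's sum was 656 to 2125 CPM in cerebellum and 1343 to 3143 CPM in spinal cord.

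Of 20 S phase genes, which copy DNA and make its building blocks, all tested, 0 were called and 18 had positive differences, with a median of 0.40. Their sum did not overlap between the regions, at 1803 to 2129 CPM in cerebellum and 2194 to 2641 CPM in spinal cord. Tyms, which makes thymidylate, stood at 73.7, 103.9, 70.3 and 60.3 CPM against 86.4, 186, 83.3 and 194 CPM, with overlap (log2 difference 0.83, SE 0.33). Rrm1, a subunit of ribonucleotide reductase, had a log2 difference of 0.54 (SE 0.22). Tyms and Rrm1 were chosen after their values were seen.

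The share of dividing cells was then counted cell by cell. After each cell was thinned to 94246 reads, which left out 6 cerebellum and 30 spinal cord cells with fewer, a cell counted as cycling when at least 5 of the 20 G2/M genes had a read. The share was 23.8%, 24.4%, 11.6% and 14.3% in the 4 cerebellum samples and 21.4%, 35.9%, 29.0% and 40.6% in the 4 spinal cord samples. The first spinal cord sample lay among the cerebellum samples and the other 3 above all of them. The means were 18.5% ± 6.54 (SD, n = 4; 32 of 172 cells) and 31.7% ± 8.36 (SD, n = 4; 45 of 144 cells), a difference of 13.2 percentage points with an exact two-sided permutation p of 0.0857 and 0.257 after Benjamini-Hochberg adjustment over 3 such measures. The smallest p that 70 splits allow is 0.0286. Without thinning the means were 20.3% and 32.95% and the exact permutation p again 0.0857, and 0 of the 28 blank wells of the study reached 5 genes. With the counts as deposited, where wells of columns 1 and 2 hold other wells' reads, the difference was 1.97 percentage points. Leaving out the first spinal cord sample gave 16.6 percentage points with an exact permutation p of 0.0286, the smallest that 4 against 3 samples allow, and leaving out any other sample gave an exact permutation p of 0.0857 to 0.171. Asking for at least 8 of the 20 genes gave 9.13 percentage points with an exact permutation p of 0.257.

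**Figure D3:**
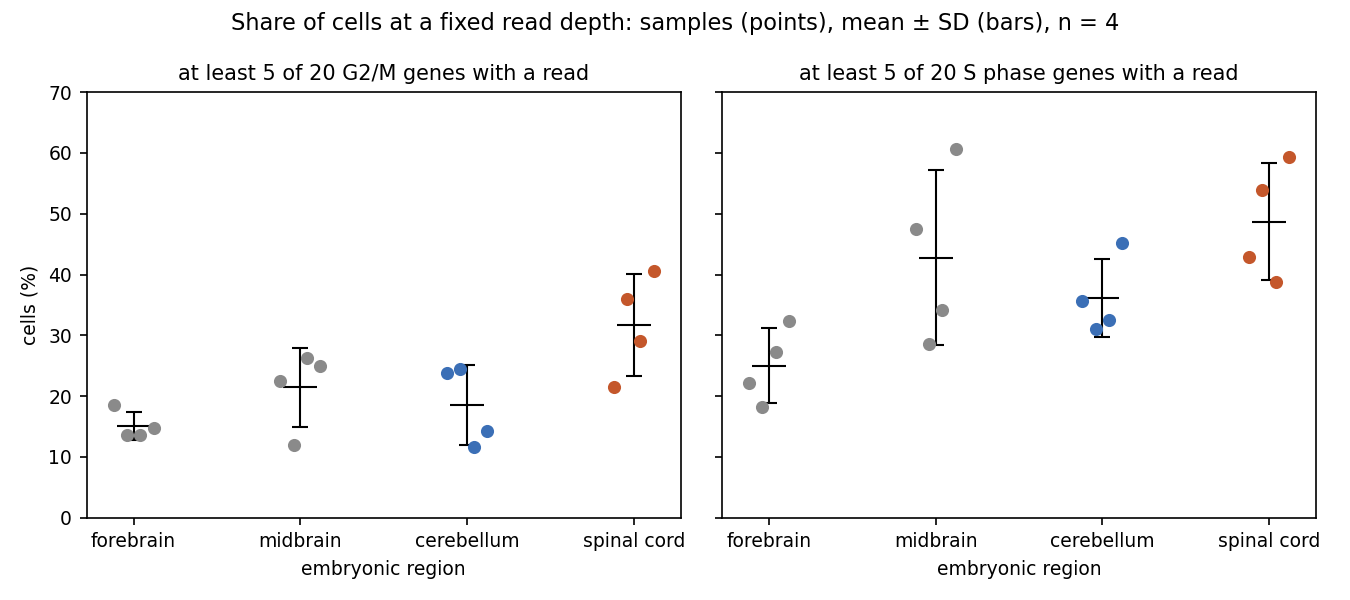
Share of cells (y axis, %) with at least 5 of 20 G2/M genes (left) or S phase genes (right) at the same read depth in each embryonic region sample, with mean and SD. Spinal cord samples reach 40.6% on the left and 59.4% on the right, and overlap cerebellum in both panels.

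Counted by S phase genes in the same way, 36.2% ± 6.35 of cerebellum cells and 48.7% ± 9.56 of spinal cord cells (SD, n = 4 each) qualified, with an exact permutation p of 0.0857. The embryonic forebrain and midbrain, on another plate, had G2/M shares of 15.1% ± 2.32 and 21.4% ± 6.54 (SD, n = 4 each). Cycling cells were then left out of the sums, and with them the 6 cerebellum and 30 spinal cord cells with too few reads for thinning. In these sums the median of the 20 homeostatic genes was 0.01 and that of 19 S phase genes 0.56. Ccl9 and Sepp1 stood at log2 differences of -1.48 and -0.60. The part of cycling cells alone in these values was not tested.

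**Figure D4:**
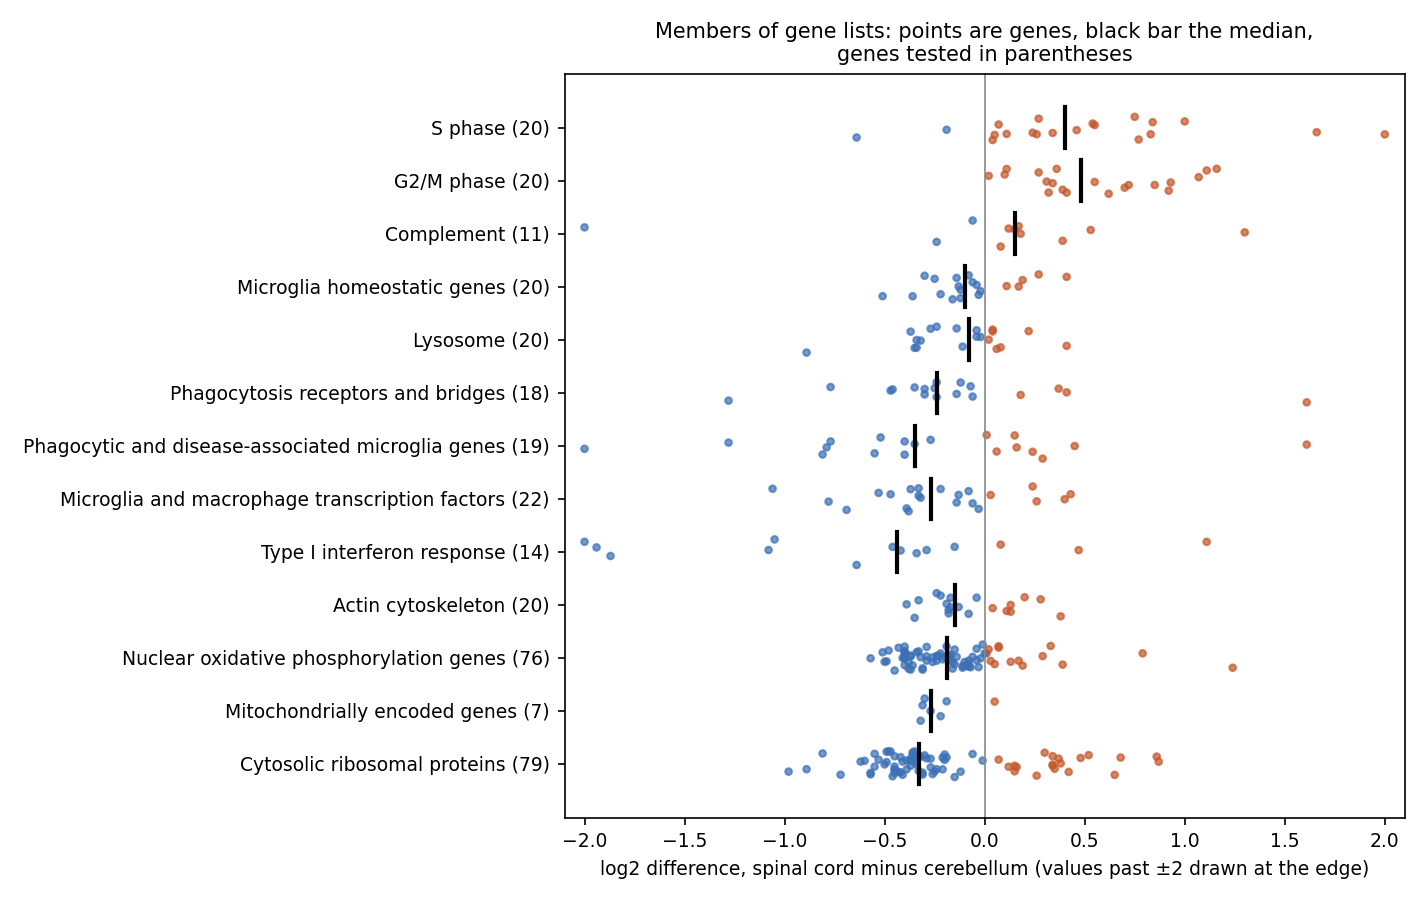
Log2 difference of spinal cord minus cerebellum (x axis) for each tested member of 13 gene lists; black bars are medians and numbers in parentheses the genes tested; values past 2 in size are drawn at the edge. G2/M genes all lie right of 0 (median 0.48), and most ribosomal protein and oxidative phosphorylation genes lie left of it (medians -0.33 and -0.19).

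Genes of protein synthesis had mostly negative differences, none past the test. Of 79 cytosolic ribosomal protein genes, all tested, 0 were called, 59 had negative and 20 positive log2 differences, and the median was -0.33; 18 lay lower in all 4 spinal cord samples and 0 lay higher in all 4, against 2.38% and 2.33% of all genes. Rplp0, a protein of the ribosomal stalk, stood at 766, 818, 877 and 689.6 CPM in cerebellum and at 568, 608, 656 and 542 CPM in spinal cord. The regions did not overlap (log2 difference -0.41, SE 0.11; adjusted p 0.538). Rpl3 lay on the other side, at 50.7 to 76.2 CPM and 70.7 to 141 CPM (log2 difference 0.87, SE 0.26; adjusted p 0.6). Rplp0 and Rpl3 were chosen after their values were seen. Ribosomal protein genes have many near-identical pseudogenes that can take part of their reads, so single members are uncertain.

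The list's summed level was 10404 to 13052 CPM in cerebellum and 8742 to 10314 CPM in spinal cord without overlap; the closest were the fourth cerebellum sample and the third spinal cord sample. Of 3 translation elongation factors looked at, all chosen after their values were seen, Eef2 had 1291.5 to 1671 CPM and 1076 to 1290.5 CPM (log2 difference -0.37, SE 0.11), and Eef1b2 634 to 838 CPM and 462 to 616 CPM (log2 difference -0.51, SE 0.13), neither with overlap and with adjusted p of 0.579 and 0.519. Eef1a1 had 1885.5 to 2399 CPM and 1339.5 to 1906 CPM, with overlap (log2 difference -0.44, SE 0.12; adjusted p 0.553). The median number of reads per cell was 365128 to 400563.5 in cerebellum and 334567.5 to 396337 in spinal cord samples, and with each cell thinned to the same depth the ribosomal median was -0.28; the part of depth and position on the plate in the remainder was not tested.

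Of 76 nuclear genes of oxidative phosphorylation, all tested, 0 were called, 61 had negative and 15 positive differences, with a median of -0.19. In every spinal cord sample 6 lay lower (7.89%) and 1 higher (1.32%), against 2.38% and 2.33% of all genes. Among genes of at least 100 CPM with an unadjusted edgeR p under 0.05, 179 were lower and 76 higher in spinal cord. The shares over all genes are not matched for level, for this list or the ribosomal one. Cox4i1, a subunit of cytochrome c oxidase chosen after its values were seen, had 521 to 747 CPM and 422 to 529 CPM with overlap (log2 difference -0.38, SE 0.15; adjusted p 0.688). Of 13 genes of the mitochondrial genome 7 were tested, 0 were called and 6 had negative differences, with a median of -0.27; their sum was 21270 to 30032 CPM in cerebellum and 17040.1 to 23235 CPM in spinal cord. The mitochondrial share of reads overlapped between the regions as given above.

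Cells with both Gpnmb and Spp1 reads, a mark of phagocytic microglia in developing white matter, were rare in both regions. At the fixed depth they were 3 of 172 cerebellum cells and 3 of 144 spinal cord cells, with mean shares of 1.75% and 2.04% over samples, and an exact permutation p of 0.6. Without thinning there were 3 of 178 and 10 of 174 such cells, mean shares of 1.695% ± 1.13 and 5.80% ± 2.49 (SD, n = 4 each), with an exact permutation p of 0.0286, the smallest these samples allow. Gpnmb itself summed to 0.257 to 33.2 CPM in cerebellum and 0.205 to 1.67 CPM in spinal cord: 736 reads in 4 cerebellum cells, 79.8% of them in 1 cell, and 47 reads in 11 spinal cord cells. Detected genes per cell at the fixed depth were 3511 ± 254 and 3634 ± 212.1 (SD, n = 4 each), with an exact permutation p of 0.6.

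Immune signalling genes were tested as further lists. Of 14 chemokine and cytokine genes tested of 20, 0 were called, 9 had positive and 5 negative differences, with a median of 0.25. In every spinal cord sample 2 of them, with Ccl9 given above, lay lower (14.3%) and 0 higher, against 2.38% and 2.33% of all genes. Ccl12, a monocyte attractant chosen after its values were seen, had 67.6, 56.1, 80.5 and 117 CPM in cerebellum and 96.5, 119.5, 256 and 94.8 CPM in spinal cord, with overlap (log2 difference 0.82, SE 0.36; adjusted p 0.763). Of 14 interferon response genes tested of 20, 0 were called and 11 had negative differences, with a median of -0.44. Of 13 genes of MHC class I presentation tested of 15, 0 were called and 6 had positive differences, with a median of -0.05.

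Of 6 border macrophage markers tested of 12, 0 were called, 3 had positive and 3 negative differences, with a median of 0.21, and of 4 monocyte markers tested of 8, 0 were called and 2 had positive and 2 negative differences, with a median of 0.75. Mrc1, which encodes CD206 and against which cells were stained in the sort, stood at 236, 146, 206 and 99.0 CPM in cerebellum and at 56.4, 87.3, 75.8 and 102 CPM in spinal cord, with overlap between the fourth samples (log2 difference -1.09, SE 0.29; adjusted p 0.538). The 12 border macrophage markers summed to 479 to 681 CPM and 351 to 442 CPM, without overlap, most of it from Mrc1 and Stab1, while Lyve1 stayed at or under 0.165 CPM in every sample and Pf4 under 10 CPM. Monocyte markers summed to 7.03 to 24.95 CPM in cerebellum and 19.7 to 68.7 CPM in spinal cord, chiefly Fn1, fibronectin, with 1.10 to 8.19 CPM and 15.1 to 63.0 CPM (log2 difference 3.51, SE 0.77; adjusted p 0.328), while the monocyte gene Ly6c2 stayed at or under 0.16 CPM. Mrc1 and Fn1 were chosen after their values were seen. The part of other macrophages in the differences of the microglial genes was not tested.

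Signs of position along the body axis were few. Hox genes, which pattern the spinal cord and are silent in the anterior brain, summed to 0.0611 to 4.36 CPM in cerebellum and 1.37 to 15.1 CPM in spinal cord samples. The fourth cerebellum sample lay above 2 spinal cord samples, and 0 of the 39 genes had enough reads to be tested. The 6 motor neuron markers summed to at most 0.306 and 0.548 CPM, and granule lineage markers to 6.37 to 13.9 and 7.12 to 14.2 CPM. Sex-linked genes summed to 239 to 580 CPM in cerebellum and 271 to 642.5 CPM in spinal cord samples, with overlap. Of these 5 genes, all tested, 0 were called, 1 had a positive and 4 a negative difference, with a median of -0.52. Among them 1 lay lower in every spinal cord sample (20.0%, against 2.38% of all genes) and 0 higher. The part of sex in the differences was not tested.

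The same regions were compared at 16 weeks, when they also shared a plate, with 4 samples each. The test of the difference between the ages, an interaction in edgeR over 16 samples, called 0 of 14093 genes (percent called 0), with 956 at an unadjusted p under 0.05 (6.78%); DESeq2 called 165. At 16 weeks alone edgeR called 0 of 10989 genes, with 329 at an unadjusted p under 0.05 (2.99%). Ctsc, Ccl9 and Sepp1 were picked by their embryonic p, and the difference between the ages uses the same embryonic values. A smaller difference at a later age is therefore not a test for these genes. Ctsc had a log2 difference of -0.17 (SE 0.13) at 16 weeks against 0.80 in the embryo (difference between ages 0.95, SE 0.18; adjusted p 0.213). Ccl9 had 0.17 (SE 0.52) at 16 weeks against -1.77 (difference -1.95, SE 0.60; adjusted p 0.565), and Sepp1 -0.24 (SE 0.16) against -0.78 (difference -0.55, SE 0.20; adjusted p 0.627). At 3 weeks, where the regions lay on different plates, edgeR called 0 of 12547 genes, with 625 at an unadjusted p under 0.05 (4.98%). There Sepp1 differed by -0.69 (SE 0.10), Ccl9 by 0.62 (SE 0.27) and Ctsc by 0.05 (SE 0.13). Fcrls and Ctss, the homeostatic genes that separated the regions in the embryo, had differences of the same sign at both later ages. Fcrls had -1.09 (SE 0.28) at 16 weeks and -0.27 (SE 0.27) at 3 weeks, and Ctss 0.28 (SE 0.08) and 0.29 (SE 0.07). Neither was called.

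**Figure D5:**
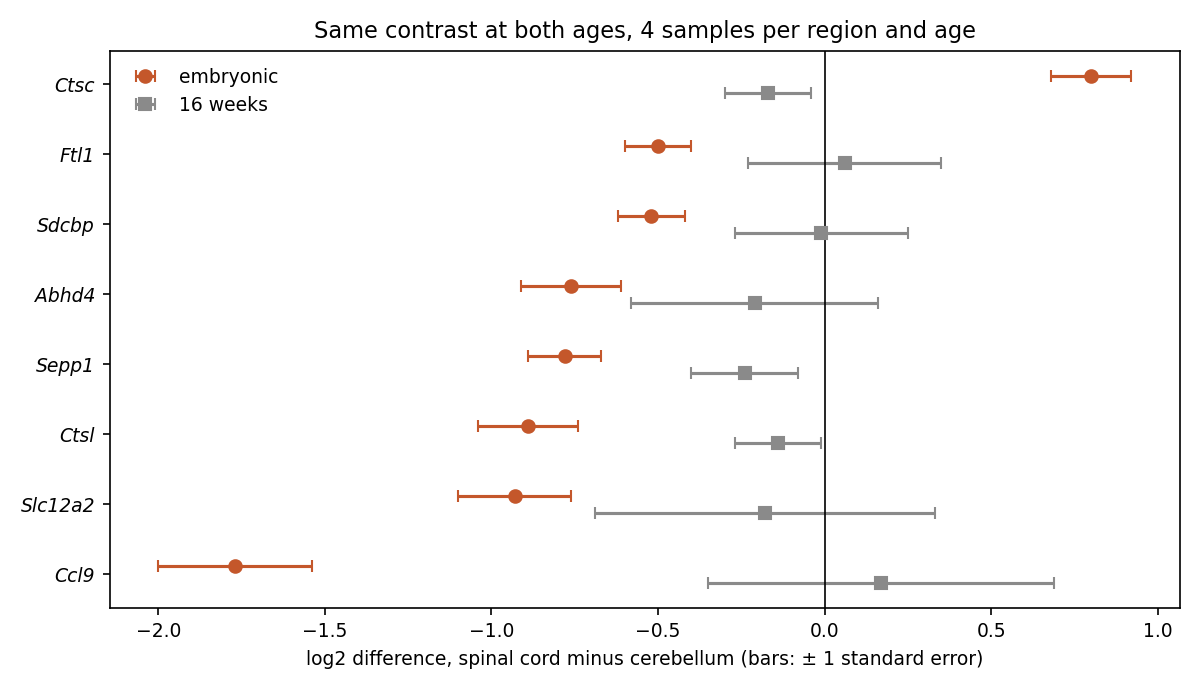
Log2 difference of spinal cord minus cerebellum (x axis) with its standard error for the 8 genes of smallest embryonic p that reach 100 CPM and could be tested at 16 weeks. The embryonic values (circles) lie from -1.77 for Ccl9 to 0.80 for Ctsc, and the 16-week values (squares) from -0.24 for Sepp1 to 0.17 for Ccl9. The genes were picked by their embryonic p, so smaller values at 16 weeks are not a test.

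The levels of several of these genes also differed by age, a comparison across plates that was not tested here. On a scaling over all 51 region samples, Gpx3 averaged 366 CPM in embryonic forebrain and 298 CPM in midbrain but 1.20 and 3.69 CPM in cerebellum and spinal cord of 3 weeks, and 0.0599 and 0.244 CPM at 16 weeks. Rab7b averaged 138.5 CPM in embryonic forebrain and 107 CPM in midbrain but at most 8.69 CPM in cerebellum and spinal cord of either later age. Ctsl averaged 3677 CPM in embryonic forebrain and 1069 to 1239 CPM in the 4 later groups. Ccl9 averaged 358 ± 72.0 CPM in embryonic forebrain and 223.5 ± 63.2 CPM in midbrain (SD, n = 4 each), and Sepp1 8387 ± 2272 and 6893 ± 265 CPM. Midbrain against forebrain, which shared another plate, gave log2 differences of -0.72 (SE 0.24) for Ccl9, -0.33 (SE 0.18) for Sepp1, -0.71 (SE 0.19) for Ctsl and 0.26 (SE 0.15) for Ctsc, and edgeR called 0 of 12384 genes there (675 at an unadjusted p under 0.05, 5.45%).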

How the data were processed

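Single microglia were sequenced with SmartSeq2. The deposited table holds raw counts of reads per gene and well (48587 gene rows), and the gene length it also lists was not used; per the submitters' processing notes STAR 2.5.2b, featureCounts 1.6.2 and GRCm38 were used, with settings and strand not given in the sources used here. In each row, wells of columns 1 and 2 held the reads of wells 10 to 19 and 20 to 24 as well, which were subtracted (224 wells in the study, 0 values negative afterwards). Wells with at least 500 genes and at most 20% mitochondrial counts were kept and summed per region and replicate. Spike-ins (92 rows) were left out. Summed counts were tested with edgeR 4.0.16 (quasi-likelihood F test, TMM, filterByExpr, robust; R 4.3.3), two-sided, with Benjamini-Hochberg adjustment over all genes and a threshold of 0.05; DESeq2 1.42.0 was an alternative. Cell measures used exact permutation over 70 splits, after thinning each cell to 94246 reads. Reads carry no molecular identifiers. The edgeR script was tested on simulated data.

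Fewer than 10 genes passed, so the genes named are the 10 with the smallest p-values in each direction and members of the homeostatic, phagocytic and G2/M lists (a few genes are not reported here); others are said to be chosen after their values were seen. The members and lists were chosen with earlier results of these data known.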

Additional observations from a re-analysis of the deposited data

Results flagged for a closer look

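Among 256 groups of 4 samples looked at, 17 held a sample that stood apart from the other 3 by most of the group's range; chance gives about 1 in 20 such groups. The sample that stood apart was not the same one for every gene. Among cerebellum samples, 1 for each gene stood high for Rab7b (180.8 CPM, next 138.8), Mki67 (232 CPM, next 87.1), Cd36 (28.4 CPM, next 4.59) and Gm10717 (128.1 CPM, next 31.3). The highest cerebellum values of Kcnc2 (0.0643 CPM), RP23-328F3 (0.165 CPM) and Gm44185 (0.055 CPM) were the only ones above 0. A single cerebellum sample, not the same one throughout, stood low for Cd9 (515.7 CPM, next 676.3), Lgals3 (0 CPM, next 11.7), Ube2c (20.0 CPM, next 83.9), Kif20a (16.5 CPM, next 58.2) and Eef1a1 (1885.5 CPM, next 2315), and for the share of cells with Gpnmb and Spp1 reads (0%, next 2.22%). Among spinal cord samples, a single one, not the same throughout, stood high for Cd36 (13.6 CPM, next 1.52), Eef1b2 (616.1 CPM, next 482.6) and Ccl12 (255.9 CPM, next 119.5), and 1 low for Ccnb2 (52.9 CPM, next 123.5).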

How the results depend on the processing

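The count of genes called by edgeR between the regions, 0, stayed at 0 with RLE size factors and with counts as deposited. The count also stayed at 0 without wells of columns 1 and 2, with either stricter cell filter and without any 1 sample. It was 0 too with cycling cells left out, together with the cells with too few reads for thinning. It was 287 with DESeq2, 9 with no filter on low counts, 1 (Sepp1, adjusted p 0.0328) with the replicate block, 1 (Ccl9) with all 16 embryonic samples and 1 (Ccl9) with each cell thinned; the cause was not tested. Same-numbered samples correlated by -0.003 to 0.045 in their deviations, and samples of unlike number by -0.034 to 0.03. All were under the limit of 0.1 set for a pairing, so the numbers were not used to pair samples. Correlations this low cannot tell whether equal numbers mark the same mice, which is not known. In the pairing's sign-flip test the exact p was 0.25 for cycling cells, where 0.125 is the smallest possible. The difference between the ages gave 165 genes with DESeq2, 5 with no filter, 0 with the block and 0 to 1 without 1 sample (Fam118a, without the first 16-week spinal cord sample). The cycling difference was 10.2 to 16.6 percentage points without 1 sample. The difference in cells with Gpnmb and Spp1 reads was -3.11 percentage points with counts as deposited, -0.671 without columns 1 and 2, -0.625 with at most 10% mitochondrial counts, 4.10 without thinning and -0.285 to 0.978 without 1 sample. Detected genes differed by -727.6 with counts as deposited.

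Of the 20 genes with the smallest p-values, 0 changed direction in the 369 values that 19 alternatives gave; 6 genes (Kcnc2, RP23-328F3, Oprm1, Zfp551, Gm37036 and Gm44185) had no value with cycling cells left out, and all of these but RP23-328F3 none with each cell thinned. The sums with cycling cells left out also lacked the cells with too few reads for thinning. Other log2 differences changed direction. With cycling cells left out they were 0.05 for P2ry13, 0.05 for P2ry12, 0.07 for Sall1, 0.06 for Csf1r, -0.24 for Lgals3, -1.23 for Bub1, -2.22 for Ube2c, -0.60 for Aurka, -1.75 for Top2a, -3.33 for Birc5 and -0.43 for Cdkn2d. Bub1, Ube2c, Aurka, Top2a and Birc5 are among the G2/M genes by which cells were called cycling, so their values in this setting are no test. With no filter they were -0.03 for Cst7 and -0.01 for Birc5, and Cst7 had -0.01 with 16 samples and -0.18 as deposited. With at most 10% mitochondrial counts they were -0.09 for Cst7, 0.38 for Cd36 and -0.02 for Cenpf, and without columns 1 and 2 -0.34 for Lgals3 and -0.04 for Lgals1. Without 1 sample the ranges were -0.11 to 0.03 for P2ry12, -0.54 to 0.01 for Slc2a5, -0.04 to 0.26 for Crybb1, -0.12 to 0.01 for Csf1r, -0.52 to 1.08 for Cst7, -3.75 to 0.27 for Cd36, -0.04 to 0.41 for Spp1, -0.02 to 0.14 for Ctsd and -0.26 to 0.43 for Lgals3. Among G2/M genes they were -0.25 to 0.62 for Cenpf, -0.01 to 0.80 for Bub1b, -0.05 to 0.58 for Ube2c, -0.26 to 0.68 for Cdc20, -0.06 to 0.77 for Ccnb2, -0.31 to 0.41 for Birc5, -0.02 to 0.52 for Ccnb1 and -0.07 to 0.85 for Kif20a.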

Other observations

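The 6 genes of endoplasmic reticulum folding factors given here were picked because their values separated the regions, from no list, and none passed the test. Hspa5, the chaperone BiP, had 418, 494, 537 and 480.5 CPM in cerebellum and 634, 708, 542.5 and 689.6 CPM in spinal cord (log2 difference 0.42, SE 0.12; edgeR adjusted p 0.604). Hsp90b1, its partner GRP94, had 494 to 587 CPM and 638 to 823 CPM (log2 difference 0.42, SE 0.12; adjusted p 0.538). The disulfide isomerases Pdia3, Pdia4 and Pdia6 had log2 differences of 0.30, 0.53 and 0.42, and the lectin chaperone Calr 0.35.

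The following 4 macrophage genes, described one by one and also chosen after their values were seen, had differences in both directions. The inhibitory receptor Cd300a had 587 to 686 CPM in cerebellum and 400.0 to 487 CPM in spinal cord (log2 difference -0.54, SE 0.11; adjusted p 0.309). Rgs10, which limits G protein signalling, had a log2 difference of -0.56 (SE 0.12; adjusted p 0.309), and Adgre1, which encodes F4/80, of -0.43 (SE 0.11; adjusted p 0.515). Fcgr1, a receptor for immunoglobulin G, had 366 to 508 CPM and 467 to 754 CPM, with overlap (log2 difference 0.41, SE 0.17; adjusted p 0.738). The predicted gene Gm10800 varied from 179 to 2211 CPM among cerebellum samples and from 1187 to 6214 CPM among spinal cord samples (log2 difference 1.75, SE 0.73), and Gm10801 from 65.2 to 536 CPM and from 407 to 1701 CPM (log2 difference 1.83, SE 0.61).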
